A study of Mus musculus with 27 samples.

Results

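The transcriptomes of naive CD8 T cells carrying a let-7 transgene (let-7Tg) were compared with those of naive wild type (WT) cells before any stimulation. The comparison used 6 of the 27 RNA-seq libraries of the study, 3 from let-7Tg and 3 from WT mice, and covered every gene in the naive expression table, 35275 genes in all. Both groups were labelled P14+ T cells from lymph nodes at 0 hours with no treatment. P14 is a transgenic T cell receptor that recognizes a peptide of a virus, so all P14+ CD8 T cells carry the same receptor. According to the study's methods, P14 mice were kept on a Rag2-/- background, the let-7Tg animals express let-7g from a doxycycline-inducible transgene inserted at the Col1a1 locus, and experimental and control mice, young adults of both sexes, were given doxycycline in drinking water unless stated otherwise. The labels do not say whether the naive animals received it, and whether a library came from 1 animal or from pooled animals is not given in the sources used here. Another naive group, lin28Tg (labelled Lin28bTg P14+, 3 libraries), carries a transgene of Lin28, a protein that blocks let-7 maturation, and is given beside the let-7Tg values where it helps to read them.

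let-7 is a large family of microRNAs that is abundant in resting lymphocytes and declines after activation. A mature microRNA is loaded into an Argonaute protein and pairs, through bases 2 to 8 of its sequence (the seed), with sites in the 3′ untranslated region (UTR) of messenger RNAs, which lowers their stability and translation. The transgene product, let-7g-5p, is encoded at its native position on chr9:106178846-106178867 (GRCm38.p6, plus strand). The amount of mature let-7 was not analysed here. The family members below are shown because they share 1 seed, given in capitals, and therefore the same kind of target site (RefSeq mature sequences, 5′ to 3′).
let-7g-5p: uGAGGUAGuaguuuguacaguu
let-7a-5p: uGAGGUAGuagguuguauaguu
let-7i-5p: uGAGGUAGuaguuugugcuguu
miR-98-5p: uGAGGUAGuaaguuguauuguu

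The 6 libraries were alike in depth, with 14120577 to 15761667 reads counted on genes in WT and 13862706 to 15504804 in let-7Tg. The CD8 T cell marker list was at similar summed levels in both groups (7555 to 8647 FPKM, a read level corrected for gene length and library depth, in WT and 7844 to 9050 in let-7Tg), with none of its 10 members differentially expressed in the limma test (1 at an unadjusted p under 0.05). The B cell marker list summed to 417 to 448 FPKM in WT and 382 to 431 in let-7Tg, nearly all of it from the immunoglobulin gene Ighm (365 to 427 FPKM), with Cd79b at 12.7 to 19.8 FPKM and the B cell transcription factor Pax5 at 0 in all 6 libraries, and none of its 6 tested members was called (0 also at an unadjusted p under 0.05). Libraries differed in sex. WT 1 and let-7Tg 1 had Ddx3y, a Y-linked gene, at 49.1 and 54.2 FPKM and almost no Xist, the RNA that silences an X chromosome in females. The other libraries of both groups had Xist at 154 to 205 FPKM and Ddx3y at or below 0.2 FPKM, so the sexes were balanced between let-7Tg and WT. The 3 lin28Tg libraries held both transcripts (Xist 68.2 to 115 FPKM, Ddx3y 13 to 37.4 FPKM).

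Few genes differed between naive let-7Tg and WT cells, and most of those differed by modest amounts. Of 13277 genes with enough reads to test, 114 were differentially expressed genes (DEGs) between let-7Tg and WT at an adjusted p under 0.05 (0.859%). Of these, 65 were lower in let-7Tg cells (0.490%) and 49 were higher (0.369%). A fold change here is a difference of log2 values of FPKM plus 0.5, after scaling of the libraries. The median DEG was -0.51 on this scale among lower genes and 0.69 among higher genes, against a median standard error (SE) of 0.123 over all genes tested. Only 17 higher and 11 lower DEGs differed by 1 log2 unit or more. The values of the 2 groups did not overlap for any of the 114 DEGs, and they did not overlap for 24.0% of all genes tested. Without a threshold on multiple testing, 1969 genes had p under 0.05, of which 841 were lower. The median over all genes was 0.02, and 46.3% of genes were below 0.

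**Figure D1:**
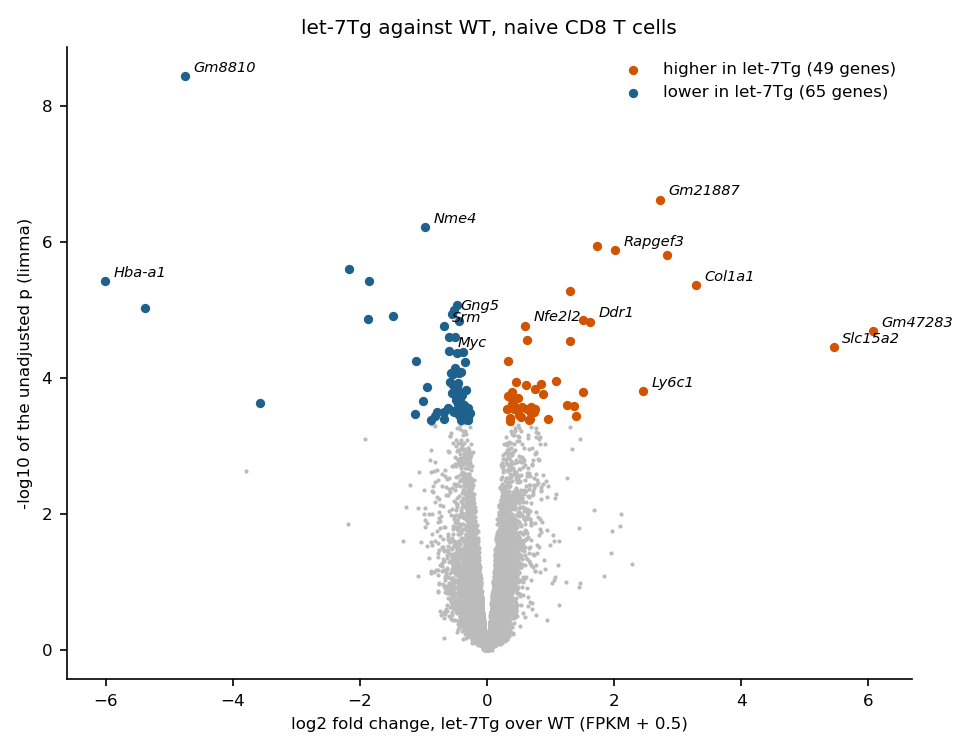
Log2 fold change of let-7Tg over WT in naive cells (horizontal axis) against -log10 of the unadjusted p (vertical axis) for the 13277 genes tested, with DEGs lower in let-7Tg in blue and DEGs higher in orange. The 65 lower DEGs are mostly within 1 log2 unit of 0, while hemoglobin genes, Gm8810, Col1a1, Slc15a2 and Gm47283 lie far from it.

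The size of this list rested on having all 6 libraries. Without WT 1, WT 2 or WT 3 the count of DEGs was 46, 15 or 22, and without let-7Tg 1, 2 or 3 it was 40, 21 or 22. In all 6 of these fits 111 of the 114 DEGs kept their sign. The other 3 (Endou, Gfra1 and Gm14150) were too low to be tested in some of them. The groups did not overlap for any DEG, so leaving out 1 library could hardly turn a sign. The kept signs are therefore no further evidence of direction. The 9 DEGs that passed in every such fit were Col1a1, Nme4, Rapgef3, Hba-a1, Gm21887 and 4 genes or pseudogenes of 1 stretch of chromosome 17 (Gm8810, Gm9574, Gm10499 and Gm19684). The other DEGs lost the call in at least 1 of them, and 61 of the 114, Cdc34, Uhrf1, Cdca7, Rrs1, Ddost and Dpagt1 among them, were called in none.

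Col1a1, encoding a chain of type I collagen and the site of the let-7g insertion, separated the genotypes. It was at 1.42, 1.07 and 1.43 FPKM in WT and at 10.1, 19.3 and 26.6 FPKM in let-7Tg. Every let-7Tg library was above every WT library, by 3.29 on the log2 scale (SE 0.356, adjusted p = 0.00558). The gene (chr11:94936224-94953042, GRCm38) also stood at 1.93 to 4.93 FPKM in lin28Tg cells. Around Col1a1, among 254 tested genes that lay no more than 10 Mb away, the only other DEGs were Lrrc59 and Plcd3, both lower, which makes 1.18% of these genes against 0.859% of genes elsewhere.

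Several of the lower DEGs are genes with known or proposed let-7 sites. The study lists 13 let-7 targets among genes that followed let-7 in naive cells. That list was drawn from these same libraries, so its direction is no independent evidence. All 13 were below 0 with non-overlapping groups (median -0.48, from -0.97 to -0.27), beside 7.28% of all genes lower without overlap, and 4 passed the test: Nme4, Gng5, Dpp3 and Cdc34. Another list, of 33 tested genes widely used as let-7 targets, had 5 lower DEGs (Nme4, Gng5, Myc, Dpp3 and Cdc34) and none higher, beside 0.490% of all genes lower, with a median of -0.16 and 26 members below 0. Nme4, Gng5, Dpp3 and Cdc34 are the DEGs of the first list as well. This list was also chosen with earlier results of these data known, so it is no independent support. Its other members included Nras, Hmga1 and Ccnd2 with values of -0.37, -0.30 and -0.42 that did not pass.

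Nme4, a nucleoside diphosphate kinase of mitochondria, had the smallest adjusted p of the lower DEGs other than the pseudogene Gm8810. It was at 10.8, 10.1 and 10.6 FPKM in WT and at 5.29, 5.23 and 5.15 FPKM in let-7Tg. The groups were tight and far apart, and the change was -0.97 (SE 0.0843, adjusted p = 0.00262). Gng5, a gamma subunit of heterotrimeric G proteins, was at 42.2, 39.2 and 38.1 FPKM in WT and at 27.7, 26.5 and 28 FPKM in let-7Tg. It was lower in each let-7Tg library than in any WT library, by a log2 change of -0.56 (SE 0.068, adjusted p = 0.00971). Cdc34, the ubiquitin-conjugating enzyme that works with SCF ligases to degrade cell cycle inhibitors, was at 48.3, 51.5 and 52.6 FPKM in WT. In let-7Tg it was at 31.8, 38.3 and 38.4 FPKM, again without overlap (-0.52, SE 0.0875, adjusted p = 0.0379). Dpp3, a cytosolic dipeptidyl peptidase, went from 35.5, 36.8 and 36.9 FPKM in WT to 28.5, 28.4 and 28.1 FPKM in let-7Tg. This was a small change with little spread (-0.38, SE 0.0541, adjusted p = 0.0181).

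The 3′ UTRs of Nme4, Gng5, Cdc34 and Dpp3 hold matches to the let-7 seed. In the 3′ UTR of Myc no such match was found in the transcript scanned. A 7mer-m8 site is the reverse complement of bases 2 to 8, CTACCTC, and an 8mer site adds a following A, CTACCTCA. The first such match is printed with its flanks for the DEGs that the comparison turns on (GENCODE M21 transcripts, GRCm38, transcript strand, site in capitals). Cdc34 and Dpp3 carry 8mers at bases 68 and 111 of the UTR, and so does Bysl, a ribosome assembly factor added to this set after its values were seen. Nme4, Gng5, Pigs and Rrp12 carry 7mer-m8 sites.
Cdc34: aggcgacagaCTACCTCAccgaggtt
Dpp3: gactttggtgCTACCTCAgctgaggg
Bysl: ctgtgaaacaCTACCTCAccaaaaac
Nme4: ccatgacctaCTACCTCtgtcaaca
Gng5: tccttaacatCTACCTCtctgaatt
Pigs: ctttgtgtgcCTACCTCtggacagg
Rrp12: tgtgacgtcgCTACCTCtgagaagg
The site does not go with 1 direction. Col1a1 itself holds a 7mer-m8 match and was higher, as were Acadsb and Eogt with 7mer-m8 matches and Rbms1 with an 8mer.

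Across all genes the shift of site-bearing messages was small. The 432 tested genes with an 8mer had a median log2 fold change of -0.03, with 56.7% of them below 0. The 822 genes whose best site was a 7mer-m8 had a median of -0.03 (56.2% below 0), and the 763 with only a 7mer-A1 (the match to bases 2 to 7 followed by A, TACCTCA) had -0.01 (52.7%). The 9899 genes without a site had 0.02 (44.7%). Of the genes with an 8mer, 3 were lower and 1 was higher, of those with a 7mer-m8, 6 and 3, and of those with a 7mer-A1, 7 and 0. Genes without a site contributed 42 lower and 39 higher DEGs. The share called in either direction was 0.926% for 8mer, 1.09% for 7mer-m8 and 0.917% for 7mer-A1 genes. It was 0.818% for genes without a site and 0.859% for all genes. For 8mer genes the median against the WT mean was 0.01 in let-7Tg 1, -0.07 in let-7Tg 2 and -0.01 in let-7Tg 3. For genes without a site it was 0.05, 0.03 and 0.0011 in the same order, so 8mer genes lay below them in each library. Without let-7Tg 2 the 8mer median was 0.01 and that of all genes tested was 0.02. Genes with a site also had longer 3′ UTRs, with a median of 2473 bases for 8mer genes against 937 for genes without one, and the part of UTR length in the shift was not tested.

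**Figure D2:**
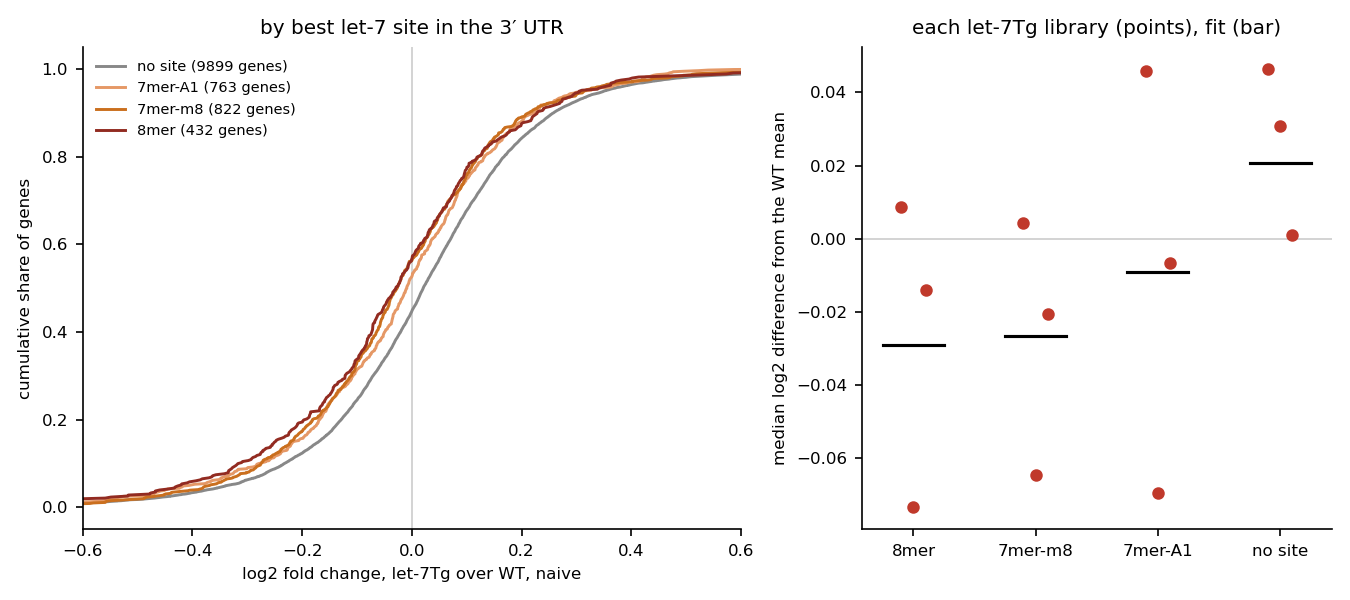
Left, cumulative share of genes against the log2 fold change of let-7Tg over WT for genes grouped by their best let-7 site. Right, the median of each group in each let-7Tg library against the WT mean, where the 8mer genes run from -0.07 to 0.01 and the 3 libraries spread as widely as the groups.

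Myc and 7 genes that build ribosomes or act directly downstream of Myc were lower in let-7Tg cells. Myc is a transcription factor that drives growth and ribosome production in activated T cells. It was at 79.7, 77.3 and 82.7 FPKM in WT and at 55.8, 49.4 and 56.0 FPKM in let-7Tg, a reduction of 34.0% on the scale of the test, which adds the pseudocount (log2 -0.60, SE 0.0844, adjusted p = 0.018). The lowest WT library was well above the highest let-7Tg library. Of 38 tested genes in the list of Myc and ribosome biogenesis factors, 8 were lower and none was higher, beside 0.490% of all genes lower. The list had a median of -0.27, 36 of its 38 members were below 0, and for 25 members all let-7Tg libraries were below all WT libraries, against 7.28% of all genes. Leaving out 1 library at a time moved this median between -0.30 and -0.24. Like the other lists used here, this list was chosen with earlier results of these data known. Its counts are therefore no independent support.

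Srm, spermidine synthase and a textbook target of Myc, was at 96.5, 98.2 and 111 FPKM in WT and at 65.1, 69.3 and 59.1 FPKM in let-7Tg (-0.68, SE 0.0872, adjusted p = 0.0103). Rrp12, which takes part in the export and processing of preribosomes, was at 20.4, 19.7 and 20.3 FPKM in WT and at 14.9, 12.4 and 13.3 FPKM in let-7Tg (-0.59, adjusted p = 0.0357). Rrs1, needed for assembly of the large subunit, was lower by a log2 change of -0.45 (adjusted p = 0.0291). None of these 3 genes overlapped between groups. The other DEGs of the list, named after their values were seen, were the subunit assembly factor Bysl (-0.56), the rRNA methyltransferases Nop2 (-0.47) and Fbl (-0.39), and Gar1 (-0.33), a part of the complexes that modify rRNA. The proteins of the finished cytosolic ribosome gave no DEG among 79 genes, although 75 of them were below 0 with a median of -0.14. At an unadjusted p under 0.05 there were 10 of the 79.

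**Figure D3:**
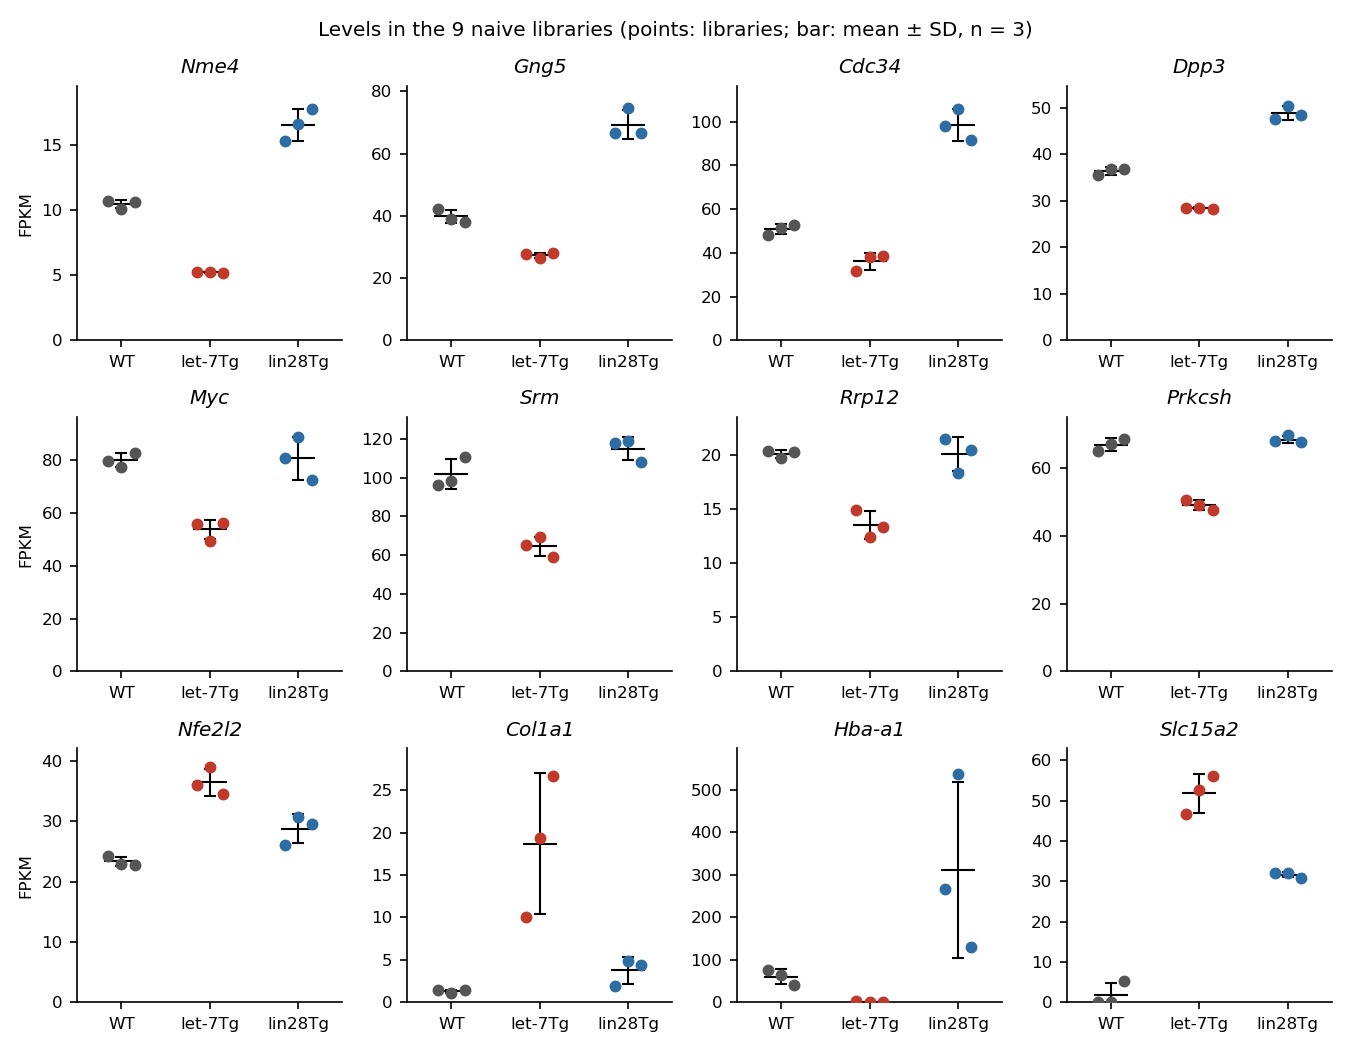
FPKM in each of the 3 WT, 3 let-7Tg and 3 lin28Tg naive libraries (points) for 12 genes, each on its own linear axis. WT and let-7Tg points do not overlap in any panel, and in Nme4, Gng5, Cdc34 and Dpp3 the lin28Tg points lie on the other side of WT from let-7Tg.

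Promoter letters were read for this list as a description. The Myc-type E-box CACGTG, a palindrome and thus the same on both strands, occurred in the 300 bases around the start (RefSeq, GRCm38) of 8 of 31 matched ribosome biogenesis genes (25.8%). It occurred in 10.1% of the promoters of tested genes, in 14.6% of 48 lower DEGs and in 6.06% of 33 higher DEGs with a promoter in the table. For the cytosolic ribosome proteins it was 8.62% of 58. A match of letters is not a measurement of binding.

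Secretory and biosynthetic genes contributed further lower DEGs. In the list of endoplasmic reticulum (ER) folding and secretion genes, 4 of 68 were lower and none was higher, beside 0.490% of all genes lower, with a median of -0.04. The 4 were Lrrc59, a ribosome-binding protein of the ER membrane (-0.44, adjusted p = 0.00971), Cnih1, a cargo receptor for transport out of the ER (-0.59, adjusted p = 0.013), Ddost, a subunit of the oligosaccharyltransferase (-0.42, adjusted p = 0.0421), and Dpagt1, the first enzyme of N-glycan synthesis (-0.61, adjusted p = 0.0436). Cnih1 was at 20.1, 23.8 and 23 FPKM in WT and at 15.1, 15 and 14.5 FPKM in let-7Tg. Outside the list, Prkcsh, the regulatory subunit of the glucosidase that trims N-glycans in the ER, was at 65.1, 67.1 and 68.8 FPKM in WT and at 50.6, 49.1 and 47.7 FPKM in let-7Tg. It was lower in every let-7Tg library (-0.47, SE 0.0552, adjusted p = 0.00913). Pigs, a subunit of the transamidase that attaches GPI anchors, was lower by a log2 change of -0.52 (adjusted p = 0.00927). These genes act on proteins at the ER, though most of the list did not pass the test.

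Enzymes of 1-carbon, lipid and sugar metabolism gave only single DEGs per list, beside 0.490% of all genes lower. Mthfd1, a folate enzyme that feeds purine synthesis, was at 25.5, 25.4 and 24.7 FPKM in WT and at 19.3, 17 and 17.8 FPKM in let-7Tg (-0.50, adjusted p = 0.0269). Slc7a5, which encodes the amino acid transporter LAT1, was lower by -0.68 (adjusted p = 0.0489). Both belong to the list of tRNA synthetases and ATF4 amino acid supply, in which 2 of 37 genes were lower. In that list 32 genes were below 0 (median -0.15), beside 46.3% of all genes. Fasn, fatty acid synthase, was the only DEG of 38 cholesterol and fatty acid genes (-0.46, adjusted p = 0.0436, list median -0.16). Pgam1, a glycolytic mutase, was the only DEG of 27 glycolysis genes (-0.53, adjusted p = 0.0291, list median -0.09). The translation factor list gave 1 lower DEG of 47, Pa2g4, a growth-regulated RNA-binding protein (-0.27, adjusted p = 0.0447), which had the smallest change of any DEG.

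Genes of DNA replication and chromatin gave few calls. Uhrf1, which maintains DNA methylation through replication, was at 11, 10.1 and 11.1 FPKM in WT and at 7.53, 5.81 and 6.85 FPKM in let-7Tg (-0.67, adjusted p = 0.0447). Cdca7, a partner of a chromatin remodeler of the replicating genome, was at 15, 15.2 and 13.9 FPKM in WT and at 9.47, 10.7 and 9.71 FPKM in let-7Tg (-0.57, adjusted p = 0.0291). They were the only DEGs of 49 replication genes (median -0.10) and 31 chromatin genes (median 0.02), beside 0.490% of all genes lower. None of 32 mitosis genes passed in the limma test (median -0.21, 6 at an unadjusted p under 0.05). Of 25 G1 cyclins, CDKs and inhibitors only Cdc34 passed, and the median of -0.02 became 0.01 without scaling of the libraries.

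**Figure D4:**
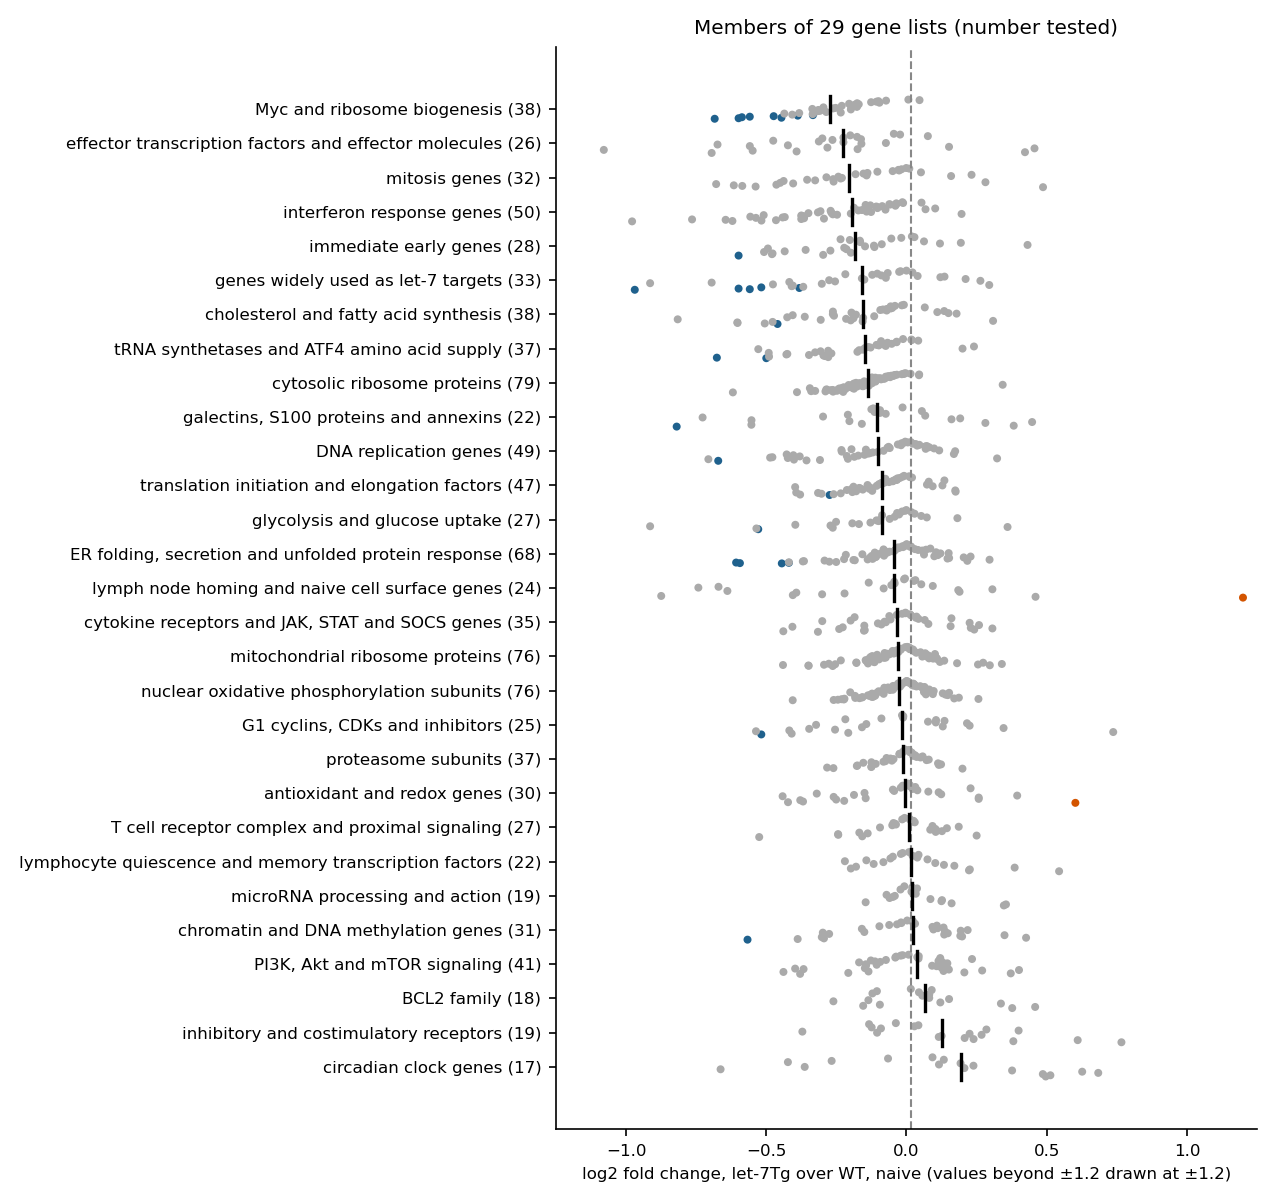
Log2 fold change of let-7Tg over WT in naive cells for the members of 29 gene lists (points, grey when not differentially expressed, blue when lower, orange when higher), with the median of each list as a black bar and the median of all genes as a dashed line. Values beyond 1.2 are drawn at the limit. Ribosome biogenesis has the lowest median (-0.27). Other lists, such as effector genes (-0.22) and mitosis genes (-0.21), also lie left of the dashed line, and some, such as clock genes (0.19), lie right of it.

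Fewer of the higher DEGs belonged to the lists. Nfe2l2 encodes NRF2, the transcription factor of the antioxidant response. It was at 24.3, 23 and 22.8 FPKM in WT and at 36.0, 39.0 and 34.5 FPKM in let-7Tg, an increase of 51.8% on the scale of the test (0.60, SE 0.0767, adjusted p = 0.0103). It was the only DEG of 30 antioxidant and redox genes, whose median was -0.0036, beside 0.369% of all genes higher. Slc25a37, the mitochondrial iron importer mitoferrin-1, was at 9.26, 8.71 and 8.05 FPKM in WT and at 18.7, 13.4 and 17.3 FPKM in let-7Tg (0.85, adjusted p = 0.0361). Esd, an esterase that detoxifies formaldehyde adducts, was at 32.1, 30.1 and 28.8 FPKM in WT and at 56.1, 56.4 and 43.6 FPKM in let-7Tg (0.73, adjusted p = 0.0447). Ly6c1, a GPI-anchored surface protein of T cell subsets, was at 7.88, 1.71 and 2.51 FPKM in WT and at 18.4, 19.4 and 25.2 FPKM in let-7Tg (2.45, SE 0.410, adjusted p = 0.0379). Its neighbour Ly6c2, a close copy that can share reads with it, went the other way in value and did not pass (-0.74, adjusted p = 0.651), so the split between the pair is uncertain.

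Several other higher DEGs were low in WT. Slc15a2, a proton-coupled transporter of small peptides, was at 0.0551, 0 and 5.41 FPKM in WT and at 46.7, 52.6 and 56.2 FPKM in let-7Tg (5.46, SE 0.757, adjusted p = 0.0164). In lin28Tg cells it was also high, at 30.9 to 32.0 FPKM, so WT stood apart from both transgenic groups. Endou, an endoribonuclease, and Rapgef3, the cAMP-activated exchange factor EPAC1, lie next to each other on chromosome 15 (97711015 to 97731339 and 97744770 to 97767972). Endou was at 0.0791, 0.147 and 0.235 FPKM in WT and at 1.42, 1.6 and 2.01 FPKM in let-7Tg (1.72, adjusted p = 0.0034). Rapgef3 was at 0.336, 0.208 and 0.375 FPKM in WT and at 2.13, 3.18 and 3.14 FPKM in let-7Tg (2.02, adjusted p = 0.0034). In lin28Tg cells both were in the range of WT or close to it, at 0.104 to 0.229 and 0.183 to 0.449 FPKM. Gfra1, a coreceptor for a glial growth factor, was at or below 0.207 FPKM in WT and at 0.973 to 1.23 FPKM in let-7Tg (1.31, adjusted p = 0.00625). Ccdc9b (1.08), Gm14150 (1.51) and, at about 5 FPKM in WT, Caskin2 (0.70) and Sgip1 (0.76, an endocytic adaptor) completed the named higher genes outside the sex chromosomes and chromosome 17. Endou, Rapgef3, Gfra1 and Gm14150 rest on few reads in WT, with 16, 23, 12 and 3 over the 3 libraries against 174, 206, 96 and 64 in let-7Tg.

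On the X chromosome 6 of 415 tested genes were higher (1.45%, beside 0.369% of all genes) and none was lower. Gprasp2, a protein that sorts G protein-coupled receptors for degradation, was at 1.07, 2.09 and 1.97 FPKM in WT and at 4.07, 6.29 and 7.41 FPKM in let-7Tg (1.52, adjusted p = 0.0379). Its family member Gprasp1 (0.63) and Armcx5 (0.68), of the same gene cluster, were also higher, and both were picked out after their values were seen. In lin28Tg cells Gprasp2 lay at 0.535 to 0.949 FPKM, below every WT library. Gm21887 (X) and Gm47283 (Y) are annotated in the region that both sex chromosomes share, where copies can trade reads. Gm47283 was at 6.06, 0.0927 and 0.0926 FPKM in WT and at 54.8, 99.9 and 132 FPKM in let-7Tg, and lin28Tg cells had 88.7 to 116 FPKM. Its level did not follow the Y-linked gene Ddx3y, since it was high in let-7Tg 2 and 3, which lacked Ddx3y.

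Part of chromosome 17 held 13 of the DEGs. Between 33 and 38 Mb, limits chosen after the data were seen, they were 13 of 158 tested genes, 8 lower and 5 higher (8.23% against 0.859% of all genes). The region contains the class I genes of the major histocompatibility complex, many of them near copies that share reads, so single values are uncertain. Gm8810 had no read in any let-7Tg library and 11.3, 13.2 and 13.9 FPKM in WT, at least 46.5-fold lower when let-7Tg is set to 3 reads per library. Gm9574 had no read in WT and 3.59, 3.20 and 2.56 FPKM in let-7Tg, at least 12.8-fold higher by the same floor. H2-T10, a nonclassical class I gene, was at 77.5, 63.1 and 61.1 FPKM in WT and at 29.8, 32.8 and 30.8 FPKM in let-7Tg (-1.12, adjusted p = 0.0225). Gm10499 (-2.18), Gm19684 (-1.85), Gm8909 (-1.49) and H2-T-ps (-0.95) were lower. Ddr1, a collagen-binding receptor kinase, was higher (1.62, adjusted p = 0.00971), with 1.98, 1.37 and 0.90 FPKM in WT and 4.98, 5.77 and 5.25 FPKM in let-7Tg. In lin28Tg cells Gm9574 and Ddr1 were higher than WT as well (1.84 and 1.39), and Gm8810, Gm10499, Gm8909, H2-T10 and H2-T-ps were lower than WT (-1.03, -1.10, -0.80, -0.52 and -0.61), each at an adjusted p under 0.05 in its own test against the same WT libraries.

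Hemoglobin transcripts were among the most strongly lower genes. Hba-a1, an alpha globin, was at 76.8, 64.1 and 41.8 FPKM in WT and at 2.16, 0 and 0.121 FPKM in let-7Tg (-6.01, SE 0.644, adjusted p = 0.00558). Hba-a2 (-5.38, adjusted p = 0.00927) and Hbb-bt (-3.58, adjusted p = 0.0436) were lower as well. Of the 8 genes in the erythroid list, 5 were tested. All 5 were below 0 without overlap, beside 7.28% of all genes, and 3 were called lower, beside 0.490%. Klf1, a list member too low to be tested, went the other way, at 0.0414 to 0.185 FPKM in WT and 0.235 to 0.418 in let-7Tg. The summed level of the list was 153 to 292 FPKM in WT, 2.40 to 39.5 in let-7Tg and 494 to 1995 in lin28Tg. In bulk RNA, fewer cells of a type and less RNA per cell cannot be told apart. The other marker lists had no DEG between let-7Tg and WT in the limma test. The 8 natural killer cell markers were all below 0 (median -0.54, 1 at an unadjusted p under 0.05, summed level 82.1 to 171 FPKM in WT and 68.1 to 117 in let-7Tg), and 16 of 18 monocyte, macrophage and dendritic cell markers were below 0 (median -0.14, sums 495 to 854 and 445 to 879). Thymocyte and recent emigrant markers were above 0 in 7 of 8 cases (median 0.35, 5 at an unadjusted p under 0.05, sums 387 to 427 and 449 to 480). The part of such cells in the DEGs was not tested.

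A pair of the remaining lower DEGs was abundant. Lgals3bp, a secreted binding partner of galectins, was at 530, 412 and 361 FPKM in WT and at 269, 214 and 264 FPKM in let-7Tg (-0.82, adjusted p = 0.0469). Gm12840 was at 525, 484 and 540 FPKM in WT and at 215, 183 and 350 FPKM in let-7Tg (-1.13, adjusted p = 0.0452). The noncoding RNA host gene Snhg4 (-0.89, adjusted p = 0.049) and the phospholipase Plcd3 (-1.87, adjusted p = 0.00971) were also lower. For Plcd3 the values were 2.73, 2.12 and 1.36 FPKM in WT and 0.198, 0.164 and 0.222 FPKM in let-7Tg.

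A set of 21 genes, drawn by the study for naive and activated cells alike, had 20 members tested here. In naive cells 2 were lower (Cdc34 and Myc), beside 0.490% of all genes, and none was higher. The median was -0.26 with 17 below 0. The study picked these genes with these libraries in hand. It names 7 of them for naive cells, and only Cdc34 of these passed. All 7 were below 0 without overlap between groups, beside 7.28% of all genes lower without overlap. Pcna, the replication clamp, was at 149, 165 and 159 FPKM in WT and at 124, 137 and 116 FPKM in let-7Tg (-0.36, adjusted p = 0.0712). The aromatic amino acid transporter Slc16a10 had -0.54 (adjusted p = 0.0712), the translation factors Eif4e2 and Eif5a had -0.30 and -0.23, and the lysyl-tRNA synthetase Kars had -0.28. Hk2, a hexokinase induced on activation, had -0.91 (adjusted p = 0.173) at 1.99 to 2.46 FPKM in WT and 0.696 to 1.70 in let-7Tg.

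The other genes of that set are named by the study for activated cells, and apart from Myc none passed in naive cells. Il4ra, an interleukin receptor subunit, had -0.32 without overlap. The other signaling and effector genes overlapped between groups: Stat5a -0.06, Stat5b 0.02, Jak3 -0.10, Rbpj -0.06, Notch2 -0.16, Ezh2 0.02, Il12rb2 -0.02 and Bcl2l1 0.08. Gzmc (-1.08), Ifng (-0.20) and Bhlhe40 (-0.42) varied widely between replicates of 1 group, with Ifng at 0.0586 to 1.89 FPKM in WT. At 12 h 12 of the 20 were lower, beside 1.84% of all genes. The study picked the set with the 12 h libraries in hand too, so this count is no independent evidence. Of the 13 let-7 targets listed by the study, 9 did not pass in naive cells. Besides Hk2 these were the chemokine receptor Ccr7 (-0.41, adjusted p = 0.105), Efhd2 (-0.48), Abcb9 (-0.58), Scd2 (-0.51), Tmed5 (-0.42), E2f6 (-0.41), Surf4 (-0.27) and Ostf1 (-0.28). All were without overlap, beside 7.28% of all genes lower without overlap, in a list drawn from these same libraries.

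Programs tied to differentiation did not yield DEGs in naive cells. None of 22 quiescence and memory transcription factors passed in the limma test (4 at an unadjusted p under 0.05). Tcf7, Foxo1 and Klf2 had -0.12, -0.18 and -0.22, while 12 of the 22 genes were above 0, up to 0.54. Without overlap 6 of the 22 were higher and 1 was lower, beside 16.7% and 7.28% of all genes. The list median of 0.02 was -0.0034 under median of ratios scaling. None of 26 effector genes passed (3 unadjusted), with a median of -0.22 that ranged from -0.47 to -0.01 when 1 library was left out. None of 50 interferon response genes passed (2 unadjusted), though 46 were below 0 (median -0.19). That median was 0.07 without WT 1 and -0.50 without WT 3. The 27 genes of the T cell receptor complex and proximal signaling (median 0.01), the 41 of PI3K, Akt and mTOR signaling (0.04), the 19 of microRNA processing (0.02), the 37 proteasome subunits (-0.01) and the 18 BCL2 family genes (0.07) had no DEG, with 5, 4, 2, 4 and 2 genes at an unadjusted p under 0.05. Another limma test, on the recovered read counts (voom), called no gene outside the 114 DEGs and so none in these lists. None of 17 clock genes was called (6 unadjusted), with Dbp and Nr1d2 at 0.68 and 0.51 and a list median of 0.19.

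The lin28Tg libraries give a reference for the reverse change in let-7 but share the WT libraries with the comparison above. lin28Tg differed from WT in 4513 genes (34.0%), 2597 higher (19.6%) and 1916 lower (14.4%). Of the 65 genes lower in let-7Tg, 20 were higher in lin28Tg, 7 were lower and 38 were not called. Of the 49 genes higher in let-7Tg, 12 were lower in lin28Tg, 13 were higher and 24 were not called. Nme4 was at 15.3, 16.6 and 17.8 FPKM in lin28Tg, Gng5 at 66.8, 74.7 and 66.5, Cdc34 at 98.1, 106 and 91.6 and Dpp3 at 47.5, 50.4 and 48.4. All 4 stood above WT in lin28Tg and below WT in let-7Tg. Myc was at 80.8, 88.7 and 72.3 FPKM in lin28Tg, a range that overlapped WT (-0.04). The ribosome biogenesis list had a median of 0.0020 in lin28Tg against WT, with 4 members higher and 2 lower. The lin28Tg libraries also held more monocyte and macrophage markers (1690 to 4765 FPKM) and erythroid markers, as given above.

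Most genes called in naive cells had the same direction after activation, and fewer were called there. let-7Tg and WT cells were also compared 12 h after activation and as day 5 CTLs, in other libraries, where 390 (3.19%) and 127 (0.975%) genes were called. Of the 65 naive lower DEGs, 62 were tested at 12 h, where 56 were below 0 and 15 were called lower, beside 1.84% of all genes. At day 5, 59 were tested, 53 were below 0 and 3 were called lower (Cnih1, Pgam1 and Dpagt1), beside 0.391%. Of the 49 naive higher DEGs, 41 were tested at 12 h, all 41 were above 0 and 11 were called higher, beside 1.35%. At day 5, 44 were tested, 30 were above 0 and only Col1a1 was called, beside 0.583%. No naive DEG was called in the opposite direction at either time.

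The values of individual genes are given by stage, and a call at only some stages is not a tested difference between them. Cdc34 was at 133, 134 and 136 FPKM in WT and 65.4, 71.7 and 71.6 in let-7Tg at 12 h (log2 change -0.98, beside -0.52 in naive cells), without overlap at either stage. Gng5 was lower at 12 h (-1.20) and had -0.58 at day 5, which did not pass. Myc was at 647 to 702 FPKM in WT and at 424 to 531 in let-7Tg at 12 h (-0.51), and at day 5 the groups overlapped (-0.08). Nfe2l2 was higher at 12 h (0.94), and at day 5 it had 0.52 with overlapping groups. Col1a1 was higher at every stage, by 5.99 at 12 h and 4.08 at day 5. The ribosome biogenesis list had a median of -0.10 at 12 h with 3 of 38 genes lower, beside 1.84% of all genes. At day 5 its median was -0.13 with 1 of 38 lower, beside 0.391%. The 33 widely used targets went from -0.16 in naive cells to -0.47 at 12 h with 12 lower, beside 1.84% of all genes. Both lists were chosen with earlier results of these data known, so these counts are no independent support. The 8mer genes had medians of -0.06 at 12 h and -0.05 at day 5.

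**Figure D5:**
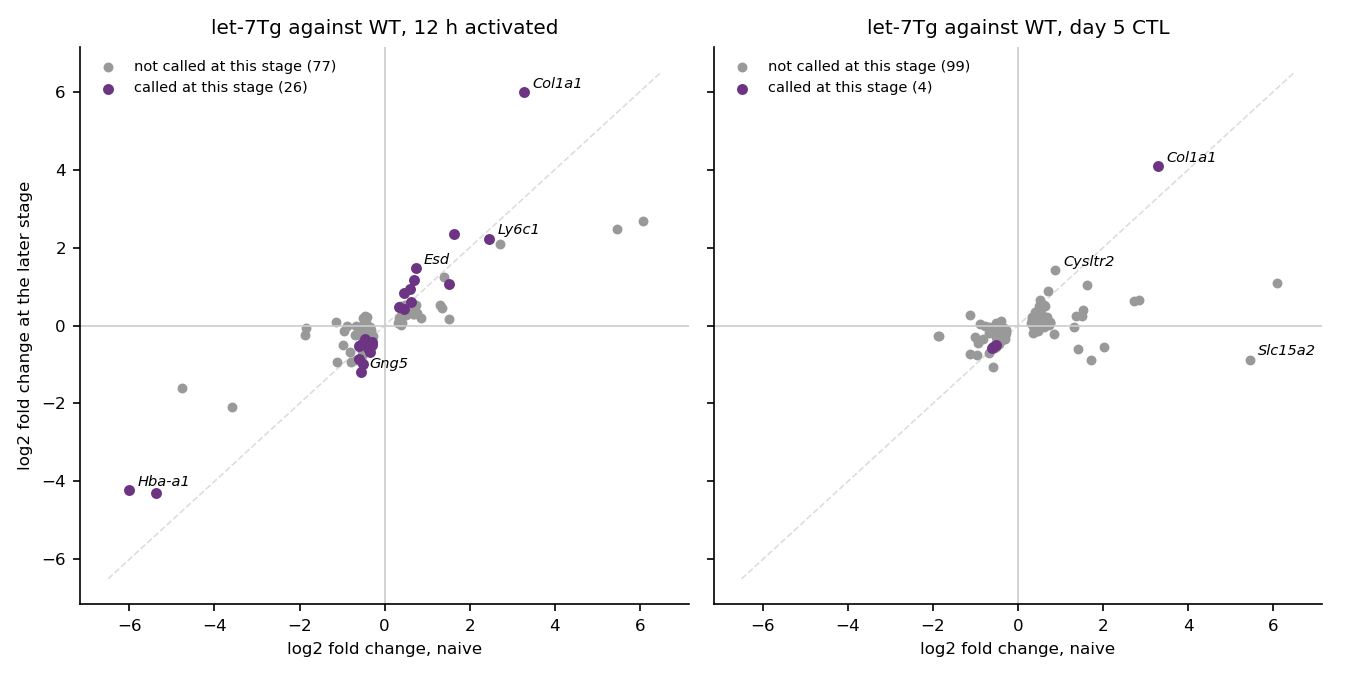
Log2 fold change of let-7Tg over WT in naive cells (horizontal axis) against that at 12 h (left) and day 5 (right) for the naive DEGs tested at each stage, with the dashed line where both are equal and purple for genes also called at the later stage. 26 of 103 are called at 12 h and 4 of 103 at day 5.

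A test of the difference between stages found few genes. The let-7Tg effect differed between naive and 12 h cells for 14 of 14453 genes (0.0969%), of which 5 were naive DEGs: Col1a1, Gfra1, Ccdc9b, Gm8909 and Gm10499. It differed between naive cells and day 5 CTLs for 61 genes (0.422%), of which 11 were naive DEGs. These included Slc15a2 (5.46 in naive cells, -0.87 at day 5), Endou (1.72 and -0.88), Rapgef3 (2.02 and -0.55), Slc25a37 (0.85 and -0.21) and Hba-a1. For Nme4, Gng5, Cdc34, Dpp3 and Myc the difference between stages did not pass (adjusted p = 0.215 or more), which does not show that the effects were equal.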

How the data were processed

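The deposited tables hold FPKM values per gene and library, which the authors made from paired-end reads with TopHat2 2.0.9, Bowtie2 2.0.6 and HTSeq 0.6.1 on GRCm38 (versions per the submitters' processing notes). The annotation release is not given in the sources used here. The same tables hold the authors' own comparisons between groups (fold changes and p-values), group-mean read counts and heatmap clusters, none of which was used, and 0 unused columns of other samples. Every FPKM value came out as a whole number of reads (within 0.01 reads) once the gene length was divided out, which gave the depth of each library and a count-based alternative.

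The naive samples were grouped by genotype from the labels. Genes were tested when 3 or more naive libraries had 10 or more reads, after bringing the libraries to their median depth, and the sum was 15 reads or more. FPKM values were scaled by TMM factors (trimming 30% of ratios and 5% of levels) computed on the recovered reads, and log2(FPKM + 0.5) was fitted with limma 3.58.1 in R 4.3.3 (trend, all 9 naive libraries sharing 1 estimate of the spread). P-values are two-sided, adjusted by the Benjamini-Hochberg method over all genes tested, and called at 0.05. Fold changes on this scale understate the change of low genes. The 12 h and day 5 libraries were fitted the same way, and differences between stages were interaction terms in 1 fit of all 27 libraries. The scripts were checked on simulated data. The study calls the 3 libraries of a group biological replicates, and whether each came from 1 animal is not given in the sources used here. No 2 replicates were as alike as sampling noise alone would make them.

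The genes and lists were chosen with earlier results of these data known. The text names Col1a1, the 10 DEGs of smallest adjusted p and the 10 of largest change (mean of at least 5 FPKM in the higher group) in each direction without overlap between groups, up to 4 DEGs per list and direction, the study's naive genes and let-7 targets, and 3 genes per difference between stages. Seed matches were counted in 1 GENCODE M21 transcript per gene (GRCm38), and 34490 of 35275 gene identifiers matched that annotation. Positions are from the same release. Promoters and microRNAs are from RefSeq (GRCm38.p6), and a promoter spans 250 bases before to 50 bases after the start. Alternatives were another scaling, no scaling, pseudocounts of 0.1 and 1, no filter, the 6 libraries alone, voom on the recovered reads, a replicate block, and each replicate left out. A term for Y-linked expression and the use of replicates 2 and 3 alone were added after seeing the data.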

Additional observations from a re-analysis of the deposited data

Results flagged for a closer look

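The effect of let-7Tg differed between naive and 12 h activated cells for 14 genes and between naive cells and day 5 CTLs for 61 genes, by a test of the difference itself (limma interaction term, Benjamini-Hochberg adjustment over 14453 genes). These values stand out because the same genotype contrast gave unlike results at separate stages. The difference of log2 fold changes, naive minus 12 h, was -1.72 for Gm10499, -1.39 for Gm8909 and 0.94 for Ccdc9b. Naive minus day 5, it was -1.91 for Gm10499, -1.49 for Gm8909 and -6.36 for Hba-a1. All 4 genes had low values at the later stage in WT or in both groups. Gm10499 was at 1.4 to 2.31 FPKM in naive WT cells and at 0.145 to 0.216 FPKM in WT at 12 h, and Gm8909 went from 1.08 to 1.94 FPKM to at most 0.122 FPKM. Ccdc9b was at 1.49 to 1.79 FPKM in naive let-7Tg cells and at most 0.0644 FPKM in let-7Tg at 12 h. Hba-a1 was at 41.8 to 76.8 FPKM in naive WT cells and at most 0.625 FPKM in day 5 WT CTLs. The pseudogene-rich class I region that holds Gm10499 and Gm8909 has near copies that share reads, so the values of these 2 genes are uncertain.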

How the results depend on the processing

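Of the 114 DEGs (49 higher, 65 lower), the count was 117 (39 and 78) with median of ratios scaling, 102 (52 and 50) with no scaling, 110 with a pseudocount of 0.1 and 109 with a pseudocount of 1. It was 49 (21 and 28) with no filter on low genes, 72 (28 and 44) with the 6 libraries alone, and 46 (20 and 26) with voom on recovered reads. With 1 library left out it ranged from 15 to 46 DEGs, 7 to 16 of them higher and 7 to 30 lower. Of the alternatives added after seeing the data, a term for Y-linked expression gave 98 (42 and 56) and replicates 2 and 3 alone gave 12 (7 and 5), with fewer samples in the fit. Whether the replicate numbers pair the samples could not be settled from the values, and the main fit used no pairing. Same-numbered WT and let-7Tg libraries had correlations of 0.471, 0.214 and 0.0602 between their deviations from the group means. WT 3 and let-7Tg 2 correlated best with each other (0.29) and not with their own number. A fit with a replicate block gave 60 DEGs (23 and 37), and 115 genes with a difference between naive cells and day 5 CTLs against 61 without the block. The genes with a difference between naive and 12 h cells went from 14 to between 4 and 13 with 1 library left out, and those between naive cells and day 5 CTLs from 61 to between 32 and 43. For genes with an 8mer the median of -0.029 ranged from -0.05253 to 0.00507 with 1 library left out, less than the spread between let-7Tg libraries. Among the named genes, the sign turned only for values near 0 that did not pass: Stat5b (-0.002) with median of ratios scaling, Il12rb2 (0.0099) with no scaling, and, with 1 library left out, Rbpj (-0.1898 to 0.0261), Ifng (-0.6883 to 0.3605), Stat5b (-0.0584 to 0.0646), Ezh2 (-0.0806 to 0.0965) and Il12rb2 (-0.0994 to 0.0377). The cause of these shifts was not tested. The depth of 13862706 to 15761667 reads limits genes below about 1 FPKM most.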
